A study of Caenorhabditis elegans with 12 samples.

Results

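The comparison described here set 3 pools of Caenorhabditis elegans titled crh-1 null against 3 pools titled WT, all harvested as fourth-stage (L4) larvae. These 6 arrays were taken by their titles from a series of 12, whose other 6 arrays held 3 pools of aak-2 o/e animals and 3 of tax-6 null animals. WT was the N2 strain, and the crh-1 null animals are labelled crh-1 (nn3315). The tax-6 null animals are labelled RB1667, tax-6(ok2065) IV. The aak-2 o/e animals are labelled AGD383, which is N2 carrying the array uthIs202. In it an aak-2c promoter drives a shortened aak2 fused to Tomato and followed by the unc-54 3'UTR, with rol6 as the marker. A further label of the same aak-2 o/e samples reads aak-2 null. Each pool held 3000 worms grown on OP50 bacteria at 750 hatched larvae per plate, replicate pools of a strain were raised on separate days, and harvest times were set per strain for differences in developmental speed. The labels name no allele or agent that all strains share. A whole-worm pool cannot tell fewer cells of a type from less RNA per cell.

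crh-1 encodes the worm's CREB, a bZIP transcription factor that binds cyclic-AMP response elements and is switched on by phosphorylation and by its coactivator CRTC-1. In the study's title, AMPK (whose catalytic subunit is encoded by aak-2) and calcineurin (encoded by tax-6) act on lifespan through CRTC-1 and CREB. In the L4 stage the epidermis ends one cuticle and starts to build the adult one. That cycle is driven by timed waves of transcription factors, collagens, matrix proteins and proteases, and the germ line and uterus mature at the same time.

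The values are log2 signals of probe sets as the authors deposited them, and 29.8% of them were less than 0.1 above the minimum of 2.11. A probe set was tested where its log2 signal reached 4 on 3 or more of the 12 arrays, which left 13396 probe sets and 10365 genes that a probe set names alone. Changes below are crh-1 null minus WT on the log2 scale, given with the standard error from a limma fit over all 12 arrays (n = 3 arrays per strain) and a Benjamini-Hochberg adjusted p over all tested probe sets. A gene "passed" where that p lay under 0.05. Where all 3 arrays of a strain were below 4, the fold is a bound against a log2 signal of 4 and is written "at least". Replicate arrays correlated at 0.993 to 0.995 within WT and 0.993 to 0.994 within crh-1 null across tested probe sets. The other strains, which share in the standard errors, gave 0.974 to 0.994 (tax-6 null) and 0.989 to 0.993 (aak-2 o/e).

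The targeted gene crh-1 had a higher, not a lower, signal under the null label. The probe set with detected crh-1 signal read 7.06, 7.18 and 7.24 on the WT arrays and 8.61, 8.43 and 8.81 on the arrays labelled crh-1 null. All 3 crh-1 null arrays stood above all 9 other arrays, and the change from WT was 1.46 ± 0.15 (adjusted p = 1.57e-05), or 2.75-fold. The tax-6 null arrays averaged 7.45 and the aak-2 o/e arrays 6.75. A second crh-1 probe set was too dim to test on the 12 arrays. The sources used here do not place these probes relative to the deleted part, their part in checking the label was not tested, and every direction below is that of the arrays labelled crh-1 null.

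**Figure D1:**
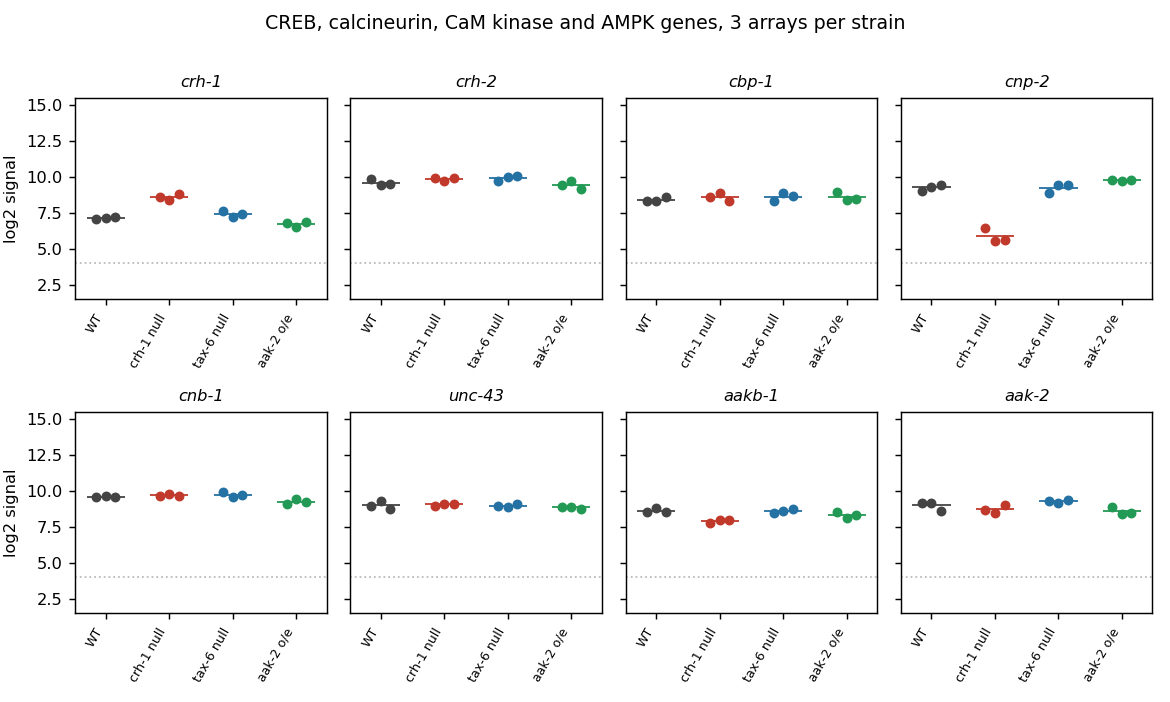
Log2 signal of 8 genes on each of the 12 arrays (points) with the strain mean (line); the dotted line marks the filter value of 4. crh-1 was highest, and cnp-2 and aakb-1 lowest, on the 3 crh-1 null arrays, while crh-2, cbp-1, cnb-1, unc-43 and aak-2 did not pass against WT.

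Of the 23 measured genes of CREB, calcineurin, calmodulin kinase, protein kinase A and AMPK, 1 rose (crh-1 itself), 2 fell and 20 did not pass. Their median change was 0.06, and 13% passed against 20.6% of all genes. cnp-2 read 9.07, 9.32 and 9.46 in WT and 6.45, 5.56 and 5.64 in the crh-1 null arrays. It fell by 3.40 ± 0.23 (adjusted p = 5.91e-07), and its crh-1 null arrays were also below the arrays of aak-2 o/e and tax-6 null, which averaged 9.78 and 9.28. aakb-1, a regulatory beta subunit of AMPK, fell by 0.70 ± 0.13 (adjusted p = 0.00229) from 8.53, 8.80 and 8.51 to 7.80, 7.95 and 8.01. The AMPK catalytic subunit aak-2 changed by -0.28 ± 0.19, the calcineurin regulatory subunit cnb-1 by 0.10 ± 0.13 and the calmodulin kinase unc-43 by 0.06 ± 0.13, none of which passed. The CREB-related crh-2 (0.27 ± 0.16) and the coactivator cbp-1 (0.19 ± 0.19) did not pass either. crtc-1, tax-6 and cmk-1 were not tested, being dim or without a probe set of their own.

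Across all 10365 genes, 2132 passed (20.6%), of which 1024 were higher (9.88%) and 1108 lower (10.7%) in crh-1 null, and the median change over all genes was -0.01. At least a 2-fold change was met by 500 genes each way (4.82% each), at least a 4-fold change by 189 higher and 211 lower genes, and at least a 16-fold change by 8 higher and 29 lower genes. By signal level, 23.5% of the genes with a mean log2 signal of 4 to 6 passed, and 15.4% of those above 12. In 99 of the genes that rose all 3 WT arrays were below 4, and in 84 of those that fell all 3 crh-1 null arrays were. The arrays of both strains did not overlap for 43% of all genes (20.2% higher and 22.8% lower).

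Several gene classes held no call at all or nearly none, where 20.6% of all genes passed. None of 61 ribosomal protein genes (median 0.01), none of 50 respiratory chain genes (median 0.06), none of 38 body wall muscle genes (median 0.08) and none of 13 neuropeptide processing genes passed. Of 31 proteasome subunits 2 fell, rpt-1 and rpt-5, by under 0.4 each, and both calls were lost under some alternatives. The muscle myosin heavy chain unc-54 read 13.16, 13.27 and 13.36 in WT and 13.42, 13.39 and 13.38 in crh-1 null, a difference of 0.13 ± 0.11 that did not pass.

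The gene with the largest rise was F26A1.8. F26A1.8, a gene known here by its sequence name only, read 3.10 on each WT array and 11.66, 11.80 and 11.60 in crh-1 null, at least 206-fold higher (8.58 ± 0.23, adjusted p = 1.01e-09). In aak-2 o/e it averaged 8.26 and in tax-6 null 3.06. catp-3, a P-type cation-transporting ATPase, averaged 4.56 ± 0.59 (SD) in WT and read 9.37, 8.94 and 9.43 in crh-1 null, a rise of 4.69 ± 0.55 (adjusted p = 5.05e-05). Both genes are in the plot of the largest changes, which took only genes whose WT and crh-1 null arrays did not overlap.

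dbd-17 read 3.47, 3.79 and 3.32 in WT and 8.06, 8.63 and 8.90 in crh-1 null, at least 23.1-fold higher, and dbd-20 rose by 4.22 ± 0.32. The nspb genes, a family of short nematode-specific peptides with near-identical members that probes may not separate, rose together: nspb-12 by 4.44 ± 0.22 (at least 7.46-fold), nspb-6 by 3.94 ± 0.24 (at least 9.23-fold), nspb-10 by 3.79 ± 0.22 and nspb-11 by 3.39 ± 0.24. Over all nematode-specific peptide families 8 of 28 measured genes rose and 3 fell (39.3% passed, against 20.6% of all genes). nspg-13 (-0.05 ± 0.13) and nspg-6 (0.08 ± 0.10) did not pass.

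**Figure D2:**
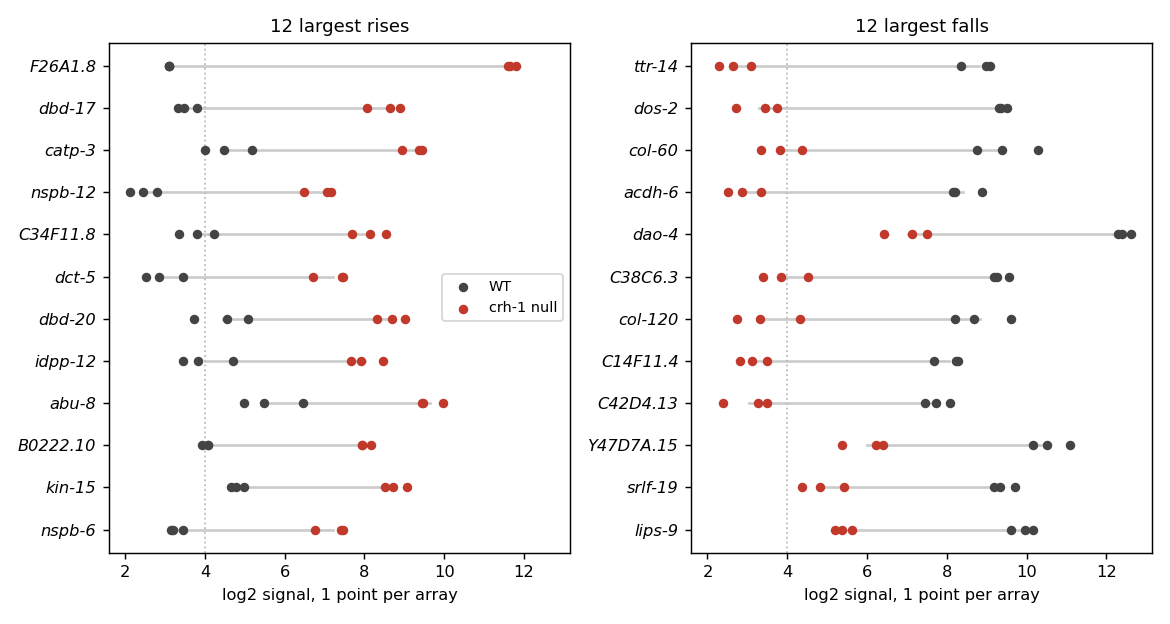
Log2 signal of the 12 genes with the largest rises (left) and the 12 with the largest falls (right) among genes that passed without overlap of the arrays, 1 point per array, with a grey line between the strain means and a dotted line at the filter value of 4. F26A1.8 spans the widest gap, from 3.10 in WT to above 11 in crh-1 null.

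The abu genes, named for activation when the unfolded protein response is blocked and coding for glutamine- and asparagine-rich proteins of the pharyngeal cuticle, included the strongest rises of the abu and pqn list. abu-8 read 4.99, 5.49 and 6.45 in WT and 9.45, 9.47 and 9.98 in crh-1 null, a rise of 3.99 ± 0.42 (adjusted p = 1.89e-05). abu-15 rose by 3.94 ± 0.36 and abu-6 by 3.90 ± 0.38, though these near-identical genes may share probe signal. In the list as a whole 10 of 46 measured genes rose and 6 fell (34.8% passed, against 20.6% of all genes). Among them pqn-13 fell by 3.50 ± 0.25 and abu-12 fell by 3.10 ± 0.15. idpp-12 rose from 3.83, 3.46 and 4.71 to 7.65, 7.92 and 8.47, a change of 4.01 ± 0.36.

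The pharynx list held 9 rises and 1 fall among 24 measured genes (41.7% passed, against 20.6% of all genes). marg-1 read 5.47, 5.33 and 5.45 in WT and 7.42, 7.07 and 7.69 in crh-1 null, and myo-5 also rose. The pharyngeal myosin heavy chain myo-2 rose by 0.78 ± 0.19 (adjusted p = 0.0113) and the troponin C tnc-2 by 0.74 ± 0.17. The call on myo-2 was lost in 1 of the alternatives run (adjusted p = 0.0555). Outside that list, the ABC transporter pgp-14 rose from 5.06, 4.79 and 4.58 to 8.24, 8.46 and 8.55. Its change was 3.61 ± 0.22 (adjusted p = 2.77e-07). Of 41 measured ABC transporters 4 rose and 6 fell (24.4% passed). The saposin-like spp-7 was the member of the pharynx list that went down and fell by 2.35 ± 0.23.

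The cuticle collagens moved in both directions. Of 107 measured col genes 29 rose, 35 fell and 43 did not pass, with a median of -0.02. Of a list of 16 further genes, collagens known mostly from body-shape mutants with the touch-neuron collagen mec-5 and the collagen-modifying hydroxylase dpy-18, 13 fell, none rose and the median was -1.24. In that list 81.2% passed, and in the col class 59.8%, against 20.6% of all genes. The 5 furrow collagens, which lie in the rings of furrows around the body, had a median of 0.30 and 1 rise. That is 20% of them, near the share of all genes.

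Among the body-shape collagens, rol-1 read 12.07, 12.40 and 12.26 in WT and 8.35, 7.84 and 7.63 in crh-1 null, a change of -4.30 ± 0.18 (adjusted p = 2.2e-08). lon-3, whose loss gives long animals, fell by 1.83 ± 0.14 from a mean of 13.95 to one of 12.12. sqt-2, dpy-5, bli-2, sqt-1, rol-6 and rol-8 had changes between -1.75 ± 0.11 and -1.33 ± 0.11. Their arrays did not overlap, which also held for 2120 of all 2132 genes that passed. dpy-17 (-0.19 ± 0.20), dpy-14 (-0.25 ± 0.17) and mec-5, a collagen of the touch receptor neurons' matrix (0.13 ± 0.18), did not pass. The furrow collagens dpy-2 (0.24 ± 0.18), dpy-3 (0.30 ± 0.13), dpy-7 (0.32 ± 0.15) and dpy-8 (0.18 ± 0.17) did not pass. dpy-9 passed with 0.53 ± 0.17 (adjusted p = 0.0443), a call lost in 11 of 21 alternatives.

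**Figure D3:**
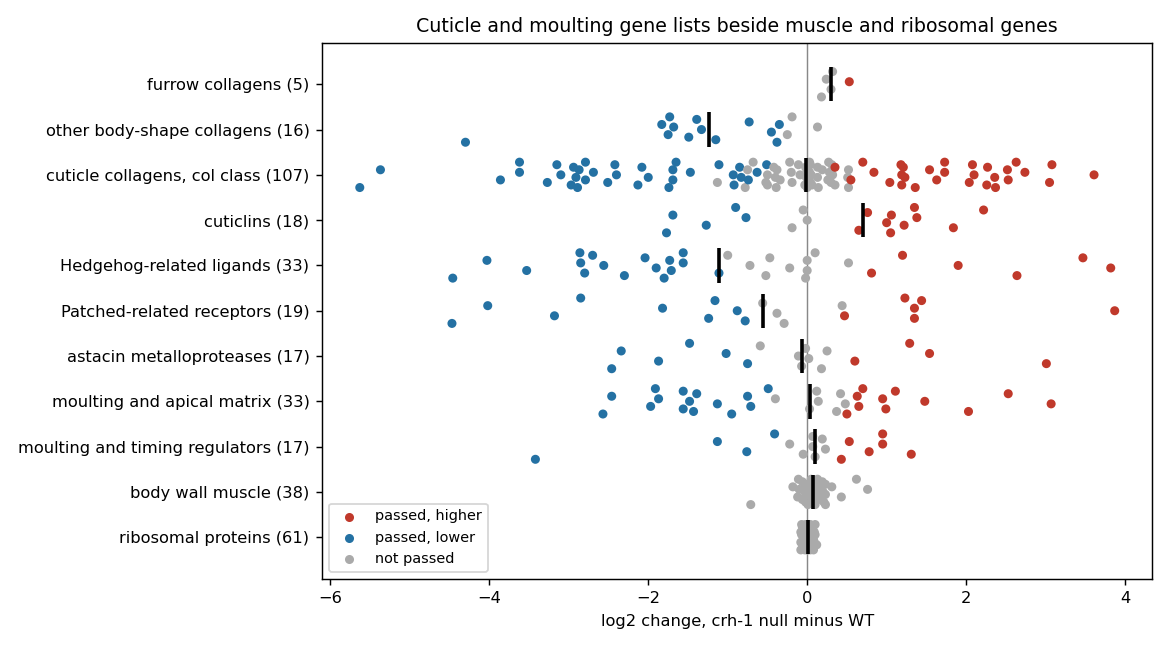
Log2 change (crh-1 null minus WT) of each measured gene of 11 lists, 1 point per gene, red for passed and higher, blue for passed and lower, grey for not passed; the black bar is the list's median and the number measured stands in parentheses. The body-shape genes lie mostly left of 0 with a median of -1.24, the cuticlins mostly right with 0.71, and muscle and ribosomal genes cluster at 0.

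In the col class the deepest falls were in col-60, col-120, col-63, col-122, col-111 and col-49. col-60 read 8.76, 10.28 and 9.38 in WT and 3.35, 4.36 and 3.82 in crh-1 null, a change of -5.63 ± 0.36 (adjusted p = 3.23e-07). col-63 fell by 3.86 ± 0.13 from 13.87, 14.12 and 14.06 to 10.11, 10.29 and 10.05. The opposite change was largest for col-39, which rose by 3.61 ± 0.22 from 9.74, 9.73 and 9.47 to 12.99, 13.31 and 13.49. col-180 rose by 2.36 ± 0.18, and its crh-1 null arrays lay above all 9 others. col-43, at a log2 signal of 14.50 to 14.64 on all 6 arrays, differed by 0.06 ± 0.10 and did not pass.

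col-19, an adult collagen used as a marker of the late L4 to adult switch, read 4.10, 5.25 and 4.34 in WT and 4.34, 4.48 and 3.86 in crh-1 null and did not pass (-0.34 ± 0.33). The same probe set averaged 9.93 ± 0.62 (SD) in aak-2 o/e and read 12.31, 11.98 and 12.31 on the tax-6 null arrays. Developmental position within L4 was not recorded in the labels, and its part in the cuticle changes was not tested. Other stage-linked genes are given with their values below.

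The cuticlins, zona pellucida domain proteins of the cuticle, held more rises than falls, with a median of 0.71. Of 18 measured genes 10 rose and 5 fell (83.3% passed, against 20.6% of all genes). cutl-6 read 4.46, 3.98 and 4.16 in WT and 6.62, 6.25 and 6.38 in crh-1 null, a rise of 2.22 ± 0.17. cutl-10 rose by 1.84 ± 0.22. cut-2 went the other way, from 12.94, 13.50 and 13.03 to 11.24, 11.42 and 11.75, and fell by 1.69 ± 0.18.

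Of 33 measured moulting and apical matrix genes 11 rose and 15 fell, with a median of 0.03. The share that passed was 78.8%, against 20.6% of all genes. The mucin-like matrix gene dpy-6 read 7.35, 7.19 and 7.15 in WT and 10.22, 10.30 and 10.39 in crh-1 null, a rise of 3.07 ± 0.29 (adjusted p = 9.13e-06). The fibrillin-related fbn-1 rose by 2.53 ± 0.18 from 8.55, 7.94 and 8.05 to 10.82, 10.59 and 10.71. let-653, a matrix protein of the early apical lining, rose by 2.03 ± 0.22. All 3 genes were above all 9 other arrays in crh-1 null.

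The falls held moulting genes of other kinds. mlt-10 read 10.02, 10.15 and 10.07 in WT and 7.85, 7.67 and 7.02 in crh-1 null, a change of -2.57 ± 0.18 (adjusted p = 7.97e-07). mlt-9 fell by 1.97 ± 0.18 and the protease inhibitor bli-5 fell by 1.91 ± 0.32. nas-37, an astacin protease that opens the old cuticle, fell by 1.48 ± 0.16 from 9.65, 9.79 and 9.71 to 8.59, 8.04 and 8.10. The apical matrix genes noah-1 (0.48 ± 0.21), noah-2 (0.14 ± 0.11) and the protease inhibitor mlt-11 (0.42 ± 0.15) did not pass.

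The regulators that time these waves also differed. nhr-23, a nuclear receptor that drives moulting genes, read 8.19, 7.91 and 8.14 in WT and 9.35, 9.41 and 9.41 in crh-1 null, a rise of 1.31 ± 0.13 (adjusted p = 1.19e-05). A second nhr-23 probe set gave 0.57 ± 0.20 and did not pass (adjusted p = 0.0673). bed-3, a zinc-finger factor needed for moulting, fell by 3.42 ± 0.22 from 7.05, 7.58 and 7.59 to 4.02, 4.40 and 3.54. lin-42, the worm's Period homologue, averaged 9.19 in WT and read 8.42, 8.45 and 8.42 in crh-1 null, and fell by 0.76 ± 0.15, and the moulting kinase nekl-2 fell by 1.13 ± 0.14. In all 6 of 17 measured timing regulators rose and 4 fell (58.8% passed, against 20.6% of all genes). lin-29 (0.10 ± 0.19), lin-28 (0.07 ± 0.14) and blmp-1 (-0.05 ± 0.12) did not pass, and nhr-25 was not tested.

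The Hedgehog-related ligands, secreted proteins of the epidermis that take part in moulting, had a median of -1.11. Of 33 measured genes 17 fell and 6 rose (69.7% passed, against 20.6% of all genes). wrt-4 read 11.73, 12.04 and 11.69 in WT and 7.59, 7.65 and 6.82 in crh-1 null, a change of -4.46 ± 0.19 (adjusted p = 2.41e-08). grd-2 fell by 4.03 ± 0.18, grl-5 fell by 3.53 ± 0.19 and grl-7 fell by 2.85 ± 0.13. Against them grl-4 rose by 3.82 ± 0.34 and grl-21 by 3.47 ± 0.21. grd-10 rose by 2.64 ± 0.18 from 9.37, 9.08 and 9.31 to 11.64, 11.91 and 12.13.

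The Patched-related membrane proteins, which carry a sterol-sensing domain, fell in 9 and rose in 6 of 19 measured genes. The share that passed was 78.9%, against 20.6% of all genes. ptr-6 read 7.62, 7.96 and 6.92 in WT and was below 4 on all crh-1 null arrays, at least 11.3-fold lower (-4.47 ± 0.23, adjusted p = 6.81e-08). ptr-16 fell by 4.02 ± 0.27, ptr-20 was at least 6.5-fold lower and ptr-18 fell by 2.85 ± 0.15. ptc-3, a Patched homologue needed for cuticle formation, fell by 1.82 ± 0.13 from 9.87, 10.18 and 9.86 to 8.04, 8.16 and 8.26. ptr-8 rose by 3.87 ± 0.31 and ptr-12 by 1.44 ± 0.11. ptc-1, the Patched homologue of the germ line, did not pass (0.44 ± 0.16).

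Of 17 measured astacin metalloproteases 4 rose and 6 fell (58.8% passed, against 20.6% of all genes), with a median of -0.07. Among the falls, nas-36, nas-37, nas-6 and nas-7 were also counted in the moulting and apical matrix list. nas-9 averaged 5.08 ± 0.05 (SD) in WT and read 8.06, 8.01 and 8.20 in crh-1 null, a rise of 3.01 ± 0.15 (adjusted p = 5.26e-08). nas-6 fell by 2.46 ± 0.35, nas-15 by 2.34 ± 0.24 and nas-7 by 1.87 ± 0.29. The transthyretin-like genes, secreted proteins related to the vertebrate thyroid hormone carrier, rose in 9 and fell in 4 of 35 (37.1% passed). ttr-21 rose by 3.39 ± 0.19, from 5.77, 5.42 and 5.48 to 8.82, 9.06 and 8.97, and ttr-8 by 2.80 ± 0.21. ttr-14 had the deepest fall of any gene in its class, reading 8.35, 8.99 and 9.08 in WT and 3.09, 2.29 and 2.63 in crh-1 null, at least 28-fold lower (-6.14 ± 0.31).

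Other deep falls lay outside these families. dos-2, a secreted ligand of the Notch pathway, read 9.31, 9.50 and 9.36 in WT and 3.44, 3.75 and 2.71 in crh-1 null, at least 42-fold lower (-6.09 ± 0.25, adjusted p = 2.2e-08). acdh-6, an acyl-CoA dehydrogenase, was at least 21.3-fold lower. dao-4 fell by 5.41 ± 0.23 from 12.28, 12.63 and 12.39 to a mean of 7.02 ± 0.54 (SD). The ligand-gated ion channel subunit lgc-22 fell by 3.67 ± 0.17 from 10.98, 11.24 and 11.13 to 7.59, 7.66 and 7.09. The lipase gene lips-9 fell by 4.51 ± 0.20, lips-3 fell by 4.32 ± 0.36 and lips-7 fell by 3.05 ± 0.25, whereas lips-10 rose by 1.99 ± 0.24 and lips-5 by 1.76 ± 0.21.

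Of 13 measured epidermal antimicrobial peptide genes, which act in defence, 6 rose, 1 fell and 6 did not pass, with a median of 1.60. The share that passed was 53.8%, against 20.6% of all genes. nlp-26 read 8.61, 8.20 and 8.61 in WT and 10.77, 10.65 and 10.85 in crh-1 null, a rise of 2.28 ± 0.24, and nlp-27 rose by 2.24 ± 0.18 and cnc-8 by 2.02 ± 0.16. cnc-3 fell by 1.43 ± 0.21. nlp-29, induced in the epidermis by fungal infection, ranged from 10.91 to 12.22 in crh-1 null against 9.31 to 10.24 in WT, and its call (1.82 ± 0.53, adjusted p = 0.0296) was lost in 5 of 21 alternatives. Of the fip and fipr peptides 3 of 5 rose, led by fipr-2 at 2.34 ± 0.18.

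**Figure D4:**
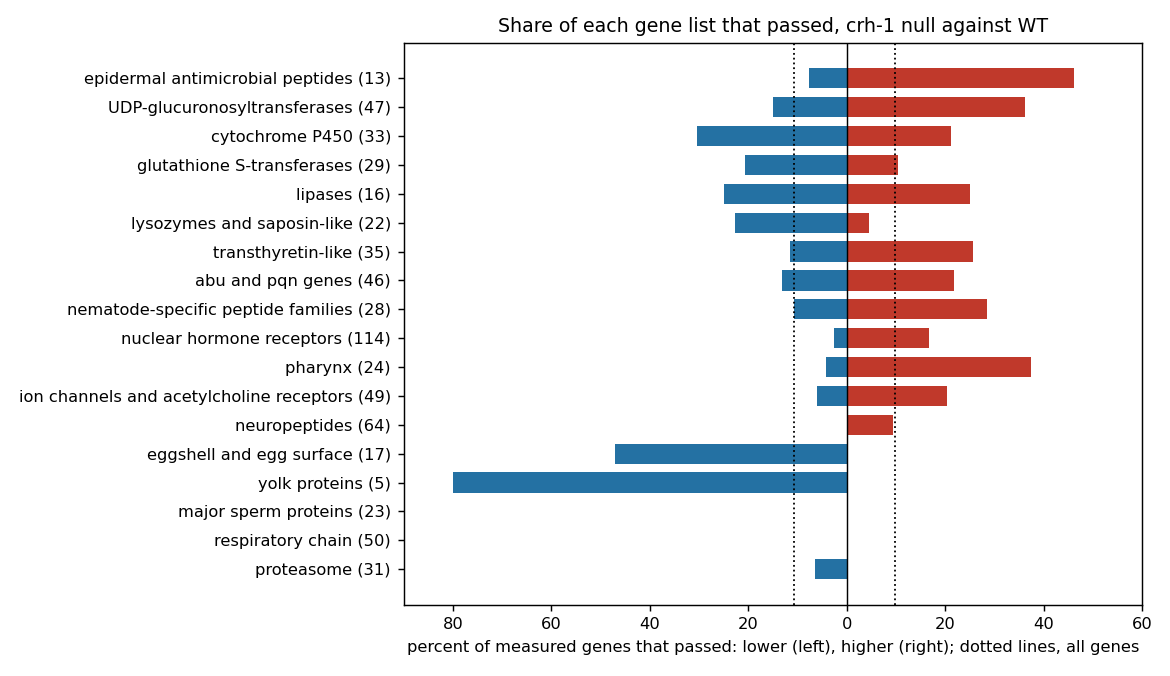
Percent of the measured genes of 18 lists that passed, lower in crh-1 null to the left and higher to the right, with the number measured in parentheses; dotted lines mark the 9.88% higher and 10.7% lower of all genes. Antimicrobial peptides and pharynx genes reach furthest right, yolk and eggshell genes furthest left, and major sperm protein and respiratory chain genes have no bar.

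Lysozymes and saposin-like proteins, which act on bacteria, fell in 5 and rose in 1 of 22 measured genes, so that 27.3% passed against 20.6% of all genes. spp-13 read 11.80, 11.60 and 11.42 in WT and 9.61, 9.26 and 8.95 in crh-1 null, a change of -2.33 ± 0.21. lys-3 fell by 2.23 ± 0.32. The gut lysozymes lys-1 (-0.09 ± 0.12) and lys-8 (-0.11 ± 0.10) did not pass. irg-1, an infection response gene, rose by 2.82 ± 0.23 from 4.24, 4.63 and 4.24 to 6.68, 7.54 and 7.36. The infection response list as a whole had 5 rises and 2 falls in 22 (31.8% passed).

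Among enzymes that process foreign and signalling molecules, UDP-glucuronosyltransferases rose in 17 and fell in 7 of 47 measured genes. The share that passed was 51.1%, against 20.6% of all genes. ugt-11 was below 4 in WT and read 5.94, 6.06 and 6.07 in crh-1 null, at least 4.06-fold higher (3.14 ± 0.14, adjusted p = 2.45e-08). ugt-57 rose by 2.06 ± 0.36 and ugt-13 by 1.94 ± 0.20. Cytochrome P450 genes were divided, with 7 rises and 10 falls in 33 (51.5% passed). Among them were cyp-32A1 (at least 4.75-fold higher), cyp-13A2 (1.94 ± 0.17) and cyp-42A1 (fell by 1.29 ± 0.21). Of 29 glutathione S-transferases 3 rose and 6 fell (31% passed). gst-4, a reporter of oxidative stress, fell by 0.99 ± 0.13 from 11.13, 11.36 and 11.45 to 10.35, 10.48 and 10.15, while gst-24 rose by 2.05 ± 0.14 and gst-41 by 2.25 ± 0.23. The peroxidase-like gpx-3 rose by 2.66 ± 0.25, and sod-1 and prdx-2 differed by under 0.1 without passing.

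In fat metabolism fasn-1, the fatty acid synthase, rose by 0.92 ± 0.14 (adjusted p = 0.000396) from 10.80, 10.67 and 10.41 to 11.52, 11.44 and 11.69. pod-2, the acetyl-CoA carboxylase that feeds it, rose by 0.78 ± 0.10. The elongase elo-4 fell by 1.76 ± 0.18 and the desaturase fat-7 fell by 1.38 ± 0.19. Of 26 genes of this list 4 rose and 4 fell, a share of 30.8% against 20.6% over all genes. acox-1.2, a peroxisomal acyl-CoA oxidase, fell by 2.23 ± 0.21. The lipid carriers far-1, far-2 and lbp-6 did not pass.

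Eggshell and yolk genes were lower in crh-1 null where they passed. Of 17 eggshell and egg surface genes 8 fell and none rose, with a median of -0.51. The share that passed was 47.1%, against 20.6% of all genes. perm-4 read 8.19, 8.71 and 8.61 in WT and 6.33, 6.73 and 5.96 in crh-1 null, a change of -2.17 ± 0.24 (adjusted p = 2.85e-05). cpg-3 fell by 1.74 ± 0.26 and the yolk receptor rme-2 by 0.88 ± 0.19. Of 5 yolk protein genes 4 fell, vit-4 from 6.50, 7.70 and 6.79 to 2.97, 3.11 and 3.11, at least 7.98-fold, and vit-5 from 5.18, 6.13 and 4.89 to 2.17, 2.22 and 2.18, at least 2.64-fold, while vit-2 did not pass (-0.29 ± 0.24). vit-1 fell by 0.95 ± 0.24 and vit-6 by 0.81 ± 0.19, calls lost in 3 and 1 of 21 alternatives.

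None of 23 major sperm protein genes passed (median -0.19), and 1 of 32 other sperm genes fell. Of 46 genes of meiosis and DNA replication 4 fell, led by the ribonucleotide reductase subunit rnr-1. The share that passed was 8.7%, against 20.6% of all genes. The germ-line helicase glh-1 differed by 0.00 ± 0.18. The part of larval stage in these values was not tested.

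Nuclear hormone receptors, ligand-regulated transcription factors, rose in 19 cases and fell in 3, while 92 did not pass, with a median of 0.27; the 19.3% that passed is near the 20.6% of all genes. nhr-172 read 4.75, 4.02 and 4.75 in WT and 7.27, 6.81 and 7.36 in crh-1 null, a rise of 2.64 ± 0.37, and nhr-14 was at least 3.07-fold lower. Of 22 bZIP factors 5 rose and none fell, a share of 22.7% that is near that of all genes. The bZIP factor atf-8 rose by 1.37 ± 0.14 from 9.03, 8.62 and 8.85 to 10.43, 10.06 and 10.13, above all 9 other arrays. The receptor kinase genes kin-15 and kin-16, expressed in the epidermis, both rose. kin-15 read 4.77, 4.97 and 4.65 in WT and 8.71, 8.51 and 9.07 in crh-1 null (3.96 ± 0.26), and kin-16 rose by 2.69 ± 0.12.

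None of 64 neuropeptide genes fell and 6 passed as higher, a share of 9.38% against 9.88% of all genes. They were flp-8, nlp-11, nlp-18, nlp-35, nlp-67 and nlp-81, with changes from 0.32 (nlp-18) to 0.91 (flp-8), and each call was lost in 5 or more alternatives. The synaptic vesicle GTPase rab-3 rose by 0.66 ± 0.10 (adjusted p = 0.000531) and the SNARE gene ric-4 by 0.55 ± 0.11, while synaptobrevin snb-1 did not pass (-0.08 ± 0.12). Of 28 synaptic genes 7 rose and none fell, so that 25% passed against 20.6% of all genes. The insulin-like peptide gene ins-5 rose by 1.76 ± 0.22 from 5.95, 6.02 and 5.71 to 7.63, 7.66 and 7.68, and ins-37 fell by 0.67 ± 0.13. Of the Smads, which carry TGF-beta signals, daf-14 rose by 0.91 ± 0.12 and sma-3 by 1.06 ± 0.22. The Smad daf-3 did not pass on either probe set (0.20 ± 0.21 and 0.38 ± 0.24). Of 19 measured TGF-beta and dauer genes 6 rose and 1 fell (36.8% passed).

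Among genes of other tissues, aqp-8, an aquaporin of the excretory system, read 8.18, 8.08 and 8.09 in WT and 10.49, 10.73 and 10.71 in crh-1 null, a rise of 2.53 ± 0.19. cdh-3, a cadherin of the vulva and excretory system, rose by 1.84 ± 0.17, and the degenerin del-6 by 2.93 ± 0.20. epic-1 rose by 1.74 ± 0.16 from 13.54, 13.28 and 13.39 to 15.13, 15.05 and 15.26, all above the 9 other arrays. The intestinal protease gene cpr-6 fell by 1.21 ± 0.19, and the gut regulators elt-2 (-0.36 ± 0.18) and elt-7 (-0.11 ± 0.15) did not pass. A second elt-2 probe set fell by 0.97 ± 0.17 (adjusted p = 0.00151). Of 33 measured intestine genes 4 rose and 2 fell (18.2% passed, against 20.6% of all genes). Of 21 measured somatic gonad and vulva genes 3 rose and none fell (14.3%). Of 21 measured coelomocyte, excretory and glia genes 5 rose and 2 fell (33.3%).

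Set against the mean of the 3 other strains, which includes the same WT arrays, 3661 genes passed (35.3%), 1851 higher and 1810 lower in crh-1 null. In 741 of them (7.15% of genes tested) all 3 crh-1 null arrays lay above all 9 other arrays, and in 548 (5.29%) below. Beside F26A1.8, the largest of these rises included B0222.10, nspe-7, kin-15 and C36C5.15. B0222.10 read 4.08, 4.08 and 3.92 in WT and 8.17, 7.94 and 7.94 in crh-1 null, and averaged 2.49 in tax-6 null, and 4.66 in the aak-2 o/e arrays. It was 4.29 above the mean of the other strains (adjusted p = 8.26e-10).

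C45B2.3 and T10B10.9 were below 4 on all 9 arrays outside crh-1 null. They entered the test only through their crh-1 null arrays, so a higher signal there was set by the filter and lends no support. C45B2.3 read 5.49, 5.38 and 5.91 in crh-1 null, at least 3.01-fold higher than WT, whose arrays were all 2.14. T10B10.9 read 5.28, 5.41 and 5.88, at least 2.87-fold higher. nspe-7 read 6.01, 5.64 and 5.22 in WT, 9.76, 8.99 and 9.51 in crh-1 null, and averaged 4.47 in tax-6 null.

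**Figure D5:**
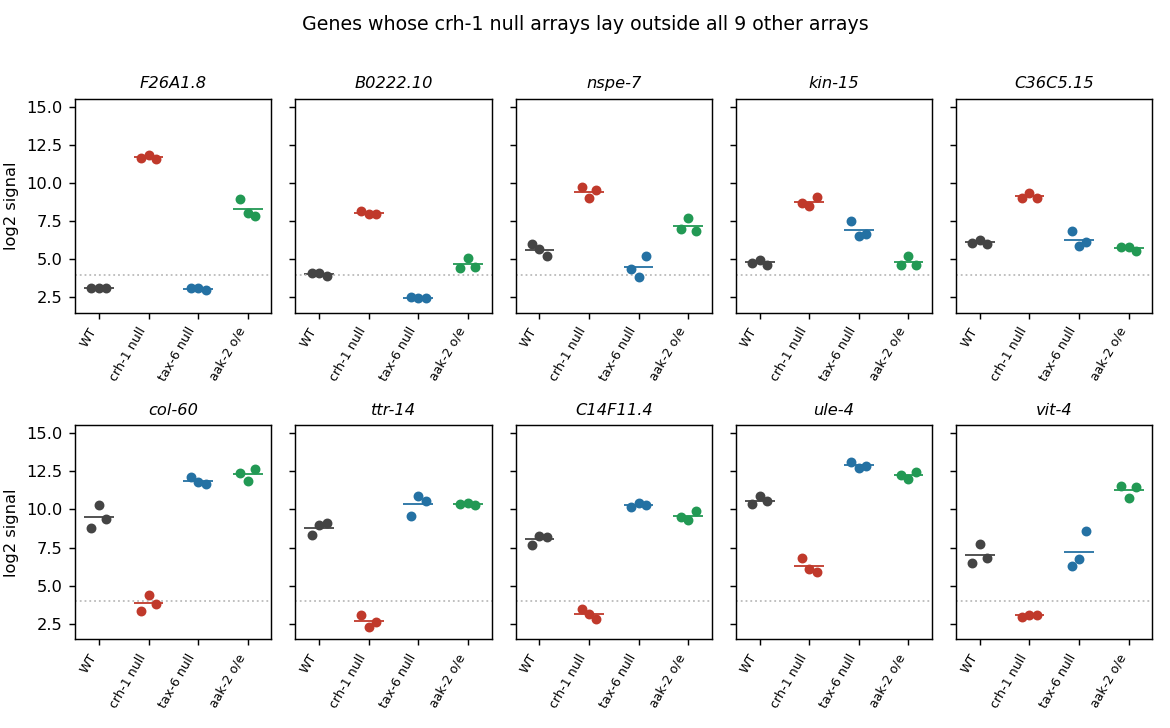
Log2 signal of 10 genes on each of the 12 arrays (points) with the strain mean (line); the dotted line marks the filter value of 4. The upper row shows genes highest and the lower row genes lowest on the 3 crh-1 null arrays; col-60, ttr-14, C14F11.4 and ule-4 were below WT in crh-1 null and above WT in aak-2 o/e and tax-6 null.

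Several of the largest falls of this kind were in genes that were higher than WT in both other altered strains. col-60 averaged 11.85 in tax-6 null, and crh-1 null minus tax-6 null was -8.01 and crh-1 null minus aak-2 o/e -8.45. ttr-14 averaged 10.33 and 10.36, ule-4, a gene expressed in the uterus, 12.87 and 12.23, and C14F11.4 10.27 and 9.57. col-129 read 5.43, 7.88 and 7.17 in WT, 4.58, 4.65 and 3.99 in crh-1 null and 13.29 on average in tax-6 null. Each of these direct contrasts of crh-1 null with the other 2 strains passed.

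Neighbouring genes sometimes passed together, where 9.88% of all genes were higher and 10.7% lower. How many groups of called neighbours those shares would give by placement alone was not tested. Of 10357 genes placed on the gene table, 29 lay in 7 runs of at least 4 measured neighbours called in the same direction, 6 runs higher and 1 lower in crh-1 null, and the longest held 5 genes. That run was C09F12.2, lpr-3, lpr-6, lpr-5 and lpr-4, where the lpr genes code for lipocalins of the apical matrix. lpr-6 read 11.24, 11.18 and 11.21 in WT and a mean of 12.19 ± 0.07 (SD) in crh-1 null, a rise of 0.99 ± 0.10, lpr-4 rose by 0.92 ± 0.19, and the calls on lpr-3 and lpr-5 were lost under some alternatives. A run of exh-1, C36C5.12, C36C5.14 and C36C5.15 rose by 0.93 ± 0.14 to 3.02 ± 0.21. nspe-1, Y38E10A.14, nspe-7 and nspe-5 formed another, with rises from 1.09 ± 0.13 to 3.80 ± 0.35. Whether the probes separate the nspe genes was not tested. The run that fell was ugt-22, ule-4, C08F11.10 and Y45F10C.4, with changes from -0.37 ± 0.12 to -4.32 ± 0.23; the calls on ugt-22 and C08F11.10 were lost in 10 and 2 of 21 alternatives.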

How the data were processed

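Arrays were Affymetrix 3' expression arrays, 1 per pool, and RNA of all pools was extracted together 12 hours before hybridisation, per the labels' protocols. The values deposited by the authors are log2 signals per probe set for which the submitters' processing notes name GCRMA and GCOS 1.4, with no version of GCRMA. GCRMA presses dim probe sets towards a shared lowest value, so folds of dim genes are bounds. Of 22625 probe sets, 20766 carried 1 gene symbol, 887 several and 895 none, and 77 were controls; names came from the platform annotation, 20701 of them matched in a RefSeq gene table (WBcel235), which was also used for neighbours. Probe sets at a log2 signal of 4 or more on 3 arrays were kept, and a gene was represented by 1 probe set. limma 3.58.1 (R 4.3.3) fitted the 4 strains together (8 residual and 3.63 prior degrees of freedom), with Benjamini-Hochberg adjustment, and was tested on simulated data. Signals have no counts behind them, so the number of arrays limits the precision. Separate days of growth are stated for the replicate pools.

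The members and gene lists were chosen with earlier results of these data known. Some genes stand in several lists, wrt-1, qua-1 and nekl-2 among them, so the list counts overlap. Genes were named from the largest changes without overlap of the arrays, from the genes standing apart from the 9 other arrays, from runs of neighbours and from the lists by largest change or highest signal. A list of chemoreceptors was found to hold other genes (serpins among them) and was not used. Deviations of WT and crh-1 null arrays with the same number correlated at 0.08, 0.14 and 0.05, so the numbers were not taken as pairs. No promoter or protein sequences were used here.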

Additional observations from a re-analysis of the deposited data

Results flagged for a closer look

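Of the genes named above, 21 changed by at least 2-fold in opposite directions in crh-1 null and in another altered strain, each against the same WT arrays, with the direct contrast between the strains also passing (limma, adjusted p under 0.05). 15 did so against tax-6 null, 16 against aak-2 o/e and 10 against both. Some of these genes were named because their crh-1 null arrays stood apart from the other strains, so the counts favour such differences. Opposite changes were not counted over all genes. The strains share their WT arrays, and harvest stage differences between strains were not tested. Where all 3 arrays of the lower strain were below a log2 signal of 4, the fitted difference is no measured size, and a bound against 4 or a remark is given with it.

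In crh-1 null minus tax-6 null, the log2 difference was -8.01 for col-60, -7.37 for col-120, -7.17 for col-122 and -8.88 for col-129. It was -6.62 for ule-4. As fitted it was -7.66 for ttr-14 (at least 80.4-fold lower), -7.14 for C14F11.4 (at least 77.2-fold) and -6.79 for Y45F10C.4 (at least 32.9-fold). The eggshell genes perm-4 and cpg-3 gave -4.77 and -3.97, the desaturase fat-7 -4.03 and the astacin nas-7 -3.04. The genes higher in crh-1 null were B0222.10 at 5.52 as fitted (not a measured size, its tax-6 null arrays all being below 4), nspe-7 at 4.95 and Y38E10A.14 at 2.97.

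In crh-1 null minus aak-2 o/e, the log2 difference was -8.45 for col-60, -8.34 for col-120, -6.10 for col-122 and -6.99 for col-129. It was -5.97 for ule-4. As fitted it was -7.69 for ttr-14 (at least 82.1-fold lower), -6.43 for C14F11.4 (at least 47.5-fold) and -6.46 for Y45F10C.4 (at least 26.2-fold). The yolk genes vit-4 and vit-5 gave -8.19 (at least 153-fold) and -8.10 (at least 78.2-fold) as fitted. The lipase lips-3 gave -5.47, perm-4 -4.48 and nas-7 -2.97. The genes higher in crh-1 null were ugt-13 at 3.35, cutl-6 at 3.29 as fitted (at least 5.35-fold) and the bZIP factor atf-8 at 2.80.

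Probe sets outside the gene comparison also passed against WT. Of 472 tested probe sets with several listed genes 66 were higher and 59 lower in crh-1 null, and of 207 with no listed gene 17 were higher and 12 lower. Among all genes compared 20.6% passed, 9.88% higher and 10.7% lower, and these counts were not tested against those shares.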

How the results depend on the processing

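Of 163 named genes that passed, 146 kept the call under every alternative run for them and 17 lost it under at least 1. There were 21 alternatives, but 7 of the named genes, 6 of them passed, were left out by the stricter filter and had 20. Of 36 named genes that did not pass, 6 passed under at least 1. No named gene reversed. Leaving out each array in turn gave 773 to 1242 higher and 786 to 1393 lower genes. Without crh-1 null replicate 3 the total was 1559, and without tax-6 null replicate 1 it was 2635, against 2132. The counts above and below all 9 other arrays ranged from 632 to 758 and from 517 to 553. Requiring at least a 2-fold change left 500 higher and 500 lower genes and 276 above all 9 arrays, and an adjusted p of 0.01 left 695 lower genes; both are stricter by construction. With the replicate number as a block 939 genes were higher and 987 lower, 1926 in all, of which 1895 were among the 2132. A fit of only the crh-1 null and WT arrays gave 1305 higher and 1351 lower genes, and array weights gave 1491 and 1624. Centring arrays on their medians moved the median change from -0.01 to 0.03 and gave 1104 higher and 995 lower genes. Of 3150 recomputed list counts 418 moved, either by more than 1.5 times or from none to some or back. Low signal limits the dim genes, whose folds are bounds, and 3 arrays a strain limit small changes.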
